A study of Mus musculus with 10 samples.

Results

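The genes described here make cholesterol and fatty acids. They were chosen by name, 22 as a sterol branch (Hmgcs1 to Stard4) and 10 as a fatty acid branch (Fasn to Acss2), and each was read from the probe set that the array's annotation assigns to it. Of the 32 genes, 29 were measured among 19505 genes in all, namely 20 of the sterol branch and 9 of the fatty acid branch. Tm7sf2, Srebf1 and Scd2 were not analysed here. Most of the genes encode enzymes, while Srebf2, Scap and Insig1 regulate the pathway and Stard4 carries sterol within the cell.

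The study asked what suppression of pyruvate carboxylase (PC, gene Pcx) does to orthotopic mammary tumors. M-Wnt cells are a mouse mammary tumor line of the C57BL/6 background. Cells with a doxycycline-inducible shRNA against Pcx were placed, 50000 per mouse, in mammary fat pad number 4 of female C57BL6/J mice of 8 to 12 weeks on an AIN-93G diet. The 5 shPC tumors came from mice that drank 150 µg/ml doxycycline and the 5 Ctrl tumors from mice on standard water, with the mice randomized between both. Both groups carried the shRNA, which was not induced in Ctrl, and only shPC mice had the drug, so that knockdown and doxycycline cannot be told apart. RNA of the whole tumor, with the host's cells in it, was measured on 1 Clariom S mouse array per tumor. All values below are log2 signals of 1 probe set per gene, and every p-value covers only how far these tumors differ.

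Cholesterol is built from acetyl-CoA through mevalonate, isoprenoid units, squalene and lanosterol. Fatty acids are built from the same acetyl-CoA by fatty acid synthase and are then desaturated and elongated. The transcription factor SREBP-2, encoded by Srebf2, drives the sterol genes once its escort SCAP has brought it out of the endoplasmic reticulum, and INSIG-1 holds SCAP back when sterols are plentiful. White fat cells run fatty acid synthesis for storage, and dividing cells need both branches for membranes.

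Promoters were searched for letters that regulators of these genes are known to bind. Of the 29 measured genes, 22 had a promoter in the RefSeq table of build GRCm38.p6, which were 16 of the sterol branch and 6 of the fatty acid branch, and the 250 bases before the start were read on both strands. Genes were counted, and a gene with several listed promoters counted if any of them held the match. The core of a sterol regulatory element, TCACNCCAC, stood before 1 of 16 sterol genes (6.25%), Hmgcs1, 0 of 6 fatty acid genes and 1.22% of 27025 genes. The NF-Y box CCAAT stood before 15 of 16 sterol genes (93.8%), 4 of 6 fatty acid genes (66.7%) and 37.5% of all. The GC box GGGCGG, which Sp1 can bind, stood before 15 of 16 sterol genes (93.8%), 3 of 6 fatty acid genes (50%) and 35.4% of all. The E box CACGTG stood before 5 of 16 sterol genes (31.2%), 1 of 6 fatty acid genes (16.7%) and 6.86% of all. A match describes letters in this window and is not a binding site, and variants that differ from a motif by a letter were not counted.

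The promoters of 4 sterol genes and 2 fatty acid genes are shown. Hmgcs1 was chosen because it held the only exact match to the sterol element core among the members read. Idi1 and Cyp51 were chosen for slopes on Sqle at an unadjusted p under 0.05. Srebf2 was chosen because it encodes the regulator itself, and Fasn and Acss2 because they followed the white adipocyte genes. Each is given 5′ to 3′ on the strand of its gene and ends at the base before the start, with the matches to the 4 motifs on either strand in capitals. In the Fasn promoter an NF-Y box and its reverse complement overlap.
Hmgcs1 (chr13:119690101-119690350, plus strand): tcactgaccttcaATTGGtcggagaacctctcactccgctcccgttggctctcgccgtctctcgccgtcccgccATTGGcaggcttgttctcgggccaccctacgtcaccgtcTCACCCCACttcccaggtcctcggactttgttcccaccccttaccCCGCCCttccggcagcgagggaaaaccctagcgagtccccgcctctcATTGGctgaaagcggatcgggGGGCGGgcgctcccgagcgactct
Idi1 (chr13:8885356-8885605, plus strand): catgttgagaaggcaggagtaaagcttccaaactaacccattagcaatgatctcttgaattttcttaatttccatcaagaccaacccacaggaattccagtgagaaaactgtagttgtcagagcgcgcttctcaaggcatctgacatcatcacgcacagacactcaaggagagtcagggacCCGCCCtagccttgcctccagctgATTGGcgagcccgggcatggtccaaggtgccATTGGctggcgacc
Cyp51 (chr5:4104698-4104947, minus strand): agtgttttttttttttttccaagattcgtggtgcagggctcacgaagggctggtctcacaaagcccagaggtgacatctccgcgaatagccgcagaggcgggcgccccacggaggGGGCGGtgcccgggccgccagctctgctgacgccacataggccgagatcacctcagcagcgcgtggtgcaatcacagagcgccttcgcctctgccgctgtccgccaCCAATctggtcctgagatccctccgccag
Srebf2 (chr15:82147019-82147268, plus strand): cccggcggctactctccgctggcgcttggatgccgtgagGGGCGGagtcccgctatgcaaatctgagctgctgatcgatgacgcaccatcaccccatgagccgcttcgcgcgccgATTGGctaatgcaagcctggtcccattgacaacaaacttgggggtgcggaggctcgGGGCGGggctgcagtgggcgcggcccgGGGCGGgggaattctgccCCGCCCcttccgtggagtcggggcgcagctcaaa
Fasn (chr11:120824548-120824797, minus strand): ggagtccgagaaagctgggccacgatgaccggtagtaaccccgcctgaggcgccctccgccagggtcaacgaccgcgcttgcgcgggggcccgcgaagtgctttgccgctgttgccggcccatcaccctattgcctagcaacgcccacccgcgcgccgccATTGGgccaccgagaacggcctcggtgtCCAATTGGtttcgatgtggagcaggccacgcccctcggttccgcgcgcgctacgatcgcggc
Acss2 (chr2:155517793-155518042, plus strand): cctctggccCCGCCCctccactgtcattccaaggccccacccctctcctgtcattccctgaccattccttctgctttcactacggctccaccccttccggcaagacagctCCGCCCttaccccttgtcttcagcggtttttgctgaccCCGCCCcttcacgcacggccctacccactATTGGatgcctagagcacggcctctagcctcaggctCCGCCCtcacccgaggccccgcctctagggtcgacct
In Hmgcs1 the match to the sterol element core stood among 3 NF-Y boxes and 2 GC boxes. Srebf2 and Acss2 held 4 GC boxes and 1 NF-Y box each, and Fasn held 3 NF-Y boxes and no GC box.

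Several facts of the tumors bear on the results. The signal of Pcx was 6.73 ± 2.69 in shPC tumors and 9.20 ± 1.64 in Ctrl tumors (SD, n = 5 each), a difference of -2.48 (limma, adjusted p = 0.378). It ranged over 4.49 to 9.91 in shPC and 7.24 to 11.01 in Ctrl, and its slope within the groups on the white adipocyte mean given below was 0.96. Ctrl 1 stood apart, with a mean of 13.94 over 5 skin keratinocyte genes against 3.54 to 7.44 in the other tumors, and of 9.92 over 6 skeletal muscle genes against 4.50 to 5.32. The array of shPC 5 had a median of 7.16, against 7.35 to 7.47 on the others. The mean of 13 white adipocyte genes was 6.22 to 11.95 in shPC tumors and 8.67 to 12.90 in Ctrl tumors. The mean of 10 leukocyte genes was 13.41 to 13.93 in shPC and 14.10 to 14.49 in Ctrl, so that the groups did not overlap, and that of 7 proliferation genes was 12.28 to 12.94 in shPC and 11.60 to 12.37 in Ctrl. The mean of 6 genes typical of mesenchymal cells was 12.86 to 13.59 in shPC and 12.70 to 13.25 in Ctrl, with Prrx1 the dimmest of them, down to 7.53 in shPC 2. In whole tumors, fewer cells of a type and less RNA per cell cannot be told apart.

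In shPC tumors the fatty acid branch held the only large differences, with Acss2, Fasn and Scd1 lower on average by more than 1 log2 unit, while no sterol gene differed by more than 0.5. None of the 29 genes passed an adjusted p of 0.05 (limma, Benjamini-Hochberg over all genes, 0% of all genes passed). The smallest adjusted p was 0.233, for Acss2. At an unadjusted p of 0.05, 1 gene was lower in shPC, Acss2, where 6.25% of all genes were, and 1 was higher, Fads1, where 7.8% of all genes were, so that neither count stands out. The values of the groups did not overlap for 0 of 29 genes, against 1.79% of all genes in which every shPC tumor was lower and 1.82% in which every shPC tumor was higher. With Ctrl 1 and shPC 5 left out, 0 genes passed the unadjusted threshold.

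**Figure D1:**
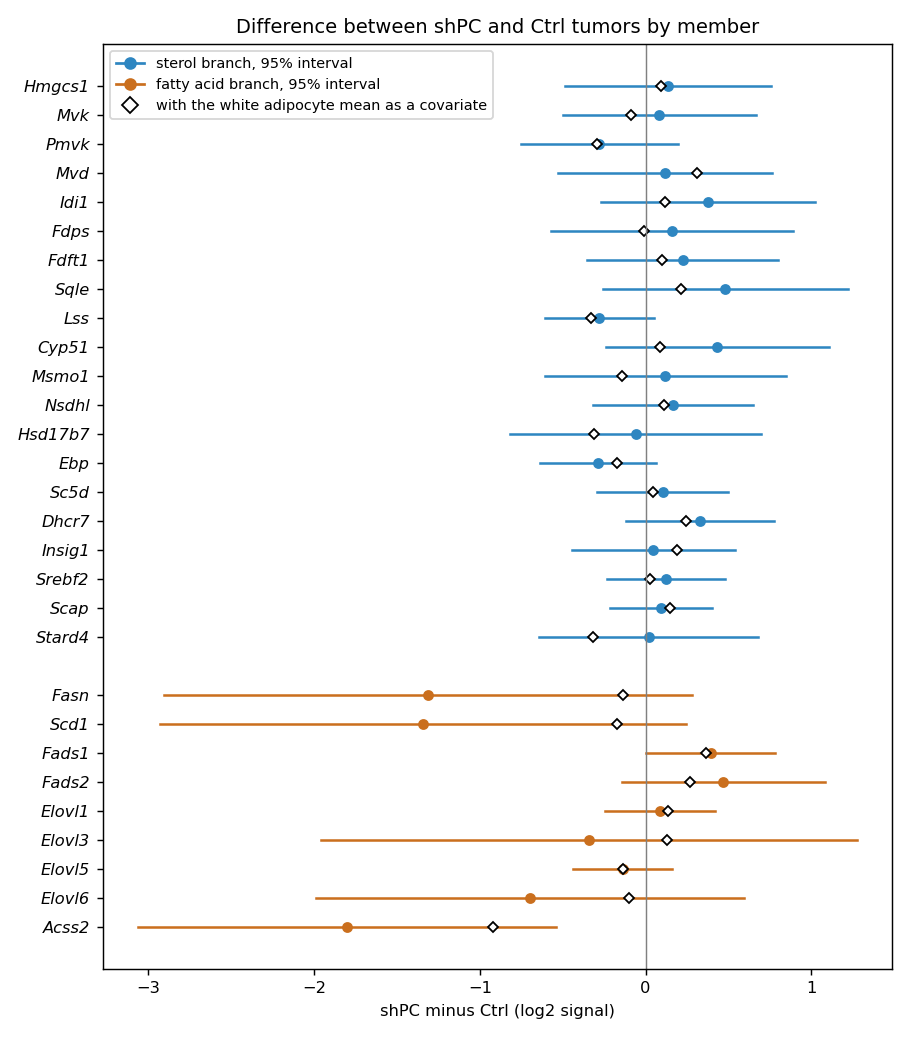
Difference between shPC and Ctrl tumors for each of 29 genes, in log2 signal (filled points, with 95% intervals from limma, n = 5 tumors per group), and the same difference with the mean of the white adipocyte genes as a covariate (open diamonds). The interval of Acss2, from -3.06 to -0.54, and that of Fads1, from 0.0049 to 0.78, do not reach 0, and the diamonds of Fasn and Scd1 lie near 0, at -0.14 and -0.17.

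The sterol branch had a mean signal of 10.49, 10.41, 10.40, 10.94 and 10.93 in shPC 1 to 5, and of 10.83, 10.28, 10.32, 10.82 and 10.39 in Ctrl 1 to 5. The tumors shPC 4 and shPC 5 lay above every Ctrl tumor, and Ctrl 2, Ctrl 3 and Ctrl 5 lay below every shPC tumor, while the others overlapped. The group means differed by 0.11. By sign, 16 of 20 sterol genes were higher in shPC and 4 lower, beside 10748 of 19505 genes higher, and the median difference was 0.12 beside 0.04 over all genes. With the leukocyte mean as a covariate, which itself separates the groups, the branch difference was -0.43. It was 0.0018 with the white adipocyte mean as a covariate.

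The first enzymes of the branch make mevalonate and turn it into isoprenoid units. Hmgcs1, the HMG-CoA synthase, had 13.25 ± 0.50 in shPC and 13.12 ± 0.49 in Ctrl (SD, n = 5 each, as below). Mvk, the mevalonate kinase, differed by 0.08 and Pmvk, the next kinase, by -0.28. Mvd, the decarboxylase, differed by 0.12, and shPC 2 was low at 6.86 while the other shPC tumors had 7.97 to 8.60 and Ctrl tumors 7.54 to 8.19. Idi1, the isopentenyl diphosphate isomerase, had 10.22 ± 0.61 in shPC and 9.84 ± 0.41 in Ctrl, with 10.76 and 10.97 in shPC 4 and shPC 5, above all Ctrl tumors. Fdps, which makes farnesyl diphosphate, differed by 0.16. The adjusted p-values of these 6 genes lay between 0.585 and 0.913.

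Squalene is made by Fdft1 and opened to its epoxide by Sqle, a rate-limiting enzyme of the branch. Sqle had 11.07, 11.08, 10.54, 12.04 and 11.13 in shPC 1 to 5 and 11.13, 10.13, 9.93, 11.50 and 10.76 in Ctrl 1 to 5. The groups overlapped, since only shPC 4 exceeded every Ctrl tumor. The difference was 0.48, with a 95% interval of -0.26 to 1.22 (limma, adjusted p = 0.545, exact permutation p = 0.278). It was the largest positive difference of the sterol branch, and it was 0.21 with the white adipocyte mean as a covariate. Fdft1 differed by 0.22.

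Lss closes the ring to lanosterol, and the following enzymes trim and rearrange it to cholesterol. Lss had 10.61 ± 0.26 in shPC and 10.89 ± 0.14 in Ctrl, with 4 of 5 shPC tumors below every Ctrl tumor (limma, adjusted p = 0.427, exact permutation p = 0.0714). Ebp, the sterol isomerase, showed the same arrangement, with 10.54 ± 0.29 in shPC and 10.83 ± 0.13 in Ctrl and 4 of 5 shPC tumors below every Ctrl tumor (adjusted p = 0.443, exact permutation p = 0.0794). Cyp51, the lanosterol demethylase, had 12.49 ± 0.67 in shPC and 12.05 ± 0.37 in Ctrl. Its values in shPC 4 and shPC 5, 13.18 and 13.19, exceeded the highest Ctrl value of 12.53. Dhcr7, which performs the last reduction, had 10.83 ± 0.17 in shPC and 10.51 ± 0.44 in Ctrl. The other 4 enzymes of this stretch, Msmo1, Nsdhl, Hsd17b7 and Sc5d, differed by -0.06 to 0.17. Hsd17b7, a ketosteroid reductase, differed by -0.06, but by 0.23 without Ctrl 1, which had 9.77 where the other tumors had 7.86 to 9.12, and by 0.04 with arrays centred on their median.

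The regulators sense sterol or pass its signal on, and Stard4 carries sterol between membranes. Srebf2 had 14.76, 14.74, 14.62, 15.07 and 14.68 in shPC 1 to 5 and 14.45, 14.46, 14.46, 15.09 and 14.80 in Ctrl 1 to 5. The ranges overlapped, with Ctrl 4 the highest of all, and the difference was 0.12 (95% interval -0.23 to 0.48, adjusted p = 0.761). Insig1, itself a target of SREBP-2, had 11.46, 11.01, 11.45, 11.40 and 11.70 in shPC 1 to 5 and 11.75, 10.63, 11.76, 11.46 and 11.18 in Ctrl 1 to 5. All 5 shPC tumors lay inside the Ctrl range and the difference was 0.05 (95% interval -0.45 to 0.54). Scap, the escort, differed by 0.09. Stard4 differed by 0.02, or -0.01 after quantile normalization, and had 10.74 and 10.53 in shPC 4 and shPC 5, above every Ctrl tumor.

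The fatty acid branch averaged 12.19, 10.98, 12.18, 11.07 and 11.27 in shPC 1 to 5, and 13.00, 11.35, 12.21, 11.70 and 12.03 in Ctrl 1 to 5. The tumors shPC 2, shPC 4 and shPC 5 lay below every Ctrl tumor and the others within the Ctrl range. The group means differed by -0.52, by -0.28 without Ctrl 1, by -0.06 with the white adipocyte mean as a covariate, and by 0.09 with both changes. Of 9 genes, 6 were lower in shPC by sign and 3 higher, and the median difference was -0.34 beside 0.04 over all genes.

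Acss2 encodes the cytosolic enzyme that makes acetyl-CoA from acetate. Its signal was 8.48, 6.36, 8.17, 5.59 and 5.82 in shPC 1 to 5 and 9.51, 7.93, 9.07, 8.13 and 8.78 in Ctrl 1 to 5. The shPC tumors 2, 4 and 5 lay below every Ctrl tumor, and shPC 1 and shPC 3 lay among the Ctrl tumors. The means were 6.88 ± 1.35 in shPC and 8.68 ± 0.66 in Ctrl, a difference of -1.80 (standard error 0.57, limma, unadjusted p = 0.00928, adjusted p = 0.233, exact permutation p = 0.0476). With the white adipocyte mean as a covariate it was -0.92 (standard error 0.26, limma, unadjusted p = 0.00555, adjusted p = 0.431). With the leukocyte mean, which separates the groups, it was -0.81. The lowest adjusted p over all alternatives was 0.114.

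Fasn, the fatty acid synthase, had 14.86, 11.54, 14.51, 11.82 and 12.25 in shPC 1 to 5 and 15.28, 13.05, 15.40, 13.32 and 14.49 in Ctrl 1 to 5. The same 3 shPC tumors as for Acss2 were the lowest of the 10. The difference was -1.31, with a 95% interval of -2.91 to 0.28 (limma, adjusted p = 0.443, exact permutation p = 0.167). With the white adipocyte mean as a covariate it was -0.14 (standard error 0.20), and with the leukocyte mean -0.47.

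Scd1 makes monounsaturated fatty acids from saturated ones and is a main desaturase of fat. It had 17.83, 14.62, 17.39, 14.31 and 14.62 in shPC 1 to 5 and 17.80, 16.26, 18.11, 16.34 and 16.98 in Ctrl 1 to 5. Again shPC 2, shPC 4 and shPC 5 lay below every Ctrl tumor. The difference was -1.34, with a 95% interval of -2.93 to 0.24 (limma, adjusted p = 0.431, exact permutation p = 0.151), and -0.17 (standard error 0.19) with the white adipocyte mean as a covariate. With the leukocyte mean it was -0.055. Scd1 has close copies in the genome, whose transcripts a probe set may in part share.

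Fads1 and Fads2 desaturate polyunsaturated fatty acids and lie side by side on chromosome 19. Fads1 had 12.91, 12.99, 13.01, 13.32 and 13.37 in shPC 1 to 5 and 12.79, 12.16, 12.83, 12.88 and 12.97 in Ctrl 1 to 5. In shPC, 4 of 5 tumors lay above every Ctrl tumor, and Ctrl 2 was low. The difference was 0.39 (standard error 0.18, limma, unadjusted p = 0.0476, adjusted p = 0.351, exact permutation p = 0.0159), and it was 0.25 without Ctrl 2. Fads2 had 13.80 ± 0.49 in shPC and 13.33 ± 0.49 in Ctrl, a difference of 0.47 (adjusted p = 0.474).

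The elongases differed among themselves. Elovl6, which extends the products of Fasn, had 11.08, 10.23, 11.44, 10.18 and 10.53 in shPC 1 to 5 and 13.59, 9.79, 11.64, 10.52 and 11.40 in Ctrl 1 to 5. Ctrl 1 was far above the rest, and the difference of -0.70 was -0.15 without it. Elovl3, known from brown fat and sebaceous glands, was under the 30th percentile of its array in 9 of 10 tumors and had 6.35 in Ctrl 1 against 1.87 to 3.60 elsewhere, so that its difference of -0.34 became 0.46 without Ctrl 1. Elovl1, which extends very long chains, was 14.15 in Ctrl 1 and 13.48 to 13.93 elsewhere. Elovl5, the elongase of polyunsaturated chains, was nearly level, at 13.83 to 14.20 in shPC and 13.87 to 14.26 in Ctrl. Beside these values of Ctrl 1 stand its skin keratinocyte mean of 13.94 and its mean of 5.59 over 7 sebocyte genes, against 3.33 to 4.04 in the other tumors. The skeletal muscle mean of Ctrl 1 was also high, at 9.92 against 4.50 to 5.32 in the other tumors. Of the sebocyte genes, Far2 had 9.75 in Ctrl 1 against 3.55 to 4.73 in the other tumors. Cidea, Awat2, Mc5r and Awat1 were also highest in Ctrl 1, at 8.08, 4.80, 4.47 and 3.82. Scd3 and Dgat2l6 were not, with higher values in Ctrl 3 (5.52) and shPC 5 (3.36). Cidea, also counted with the brown adipocyte genes, was nearly as high in Ctrl 3 (7.81), and Awat2 in shPC 4 (4.58). Awat1 and Dgat2l6 were under the 30th percentile of their array in 10 of 10 tumors, and Mc5r in 9. The next highest skin keratinocyte mean, 7.44 in shPC 4, stood beside 10.18 for Elovl6 and 2.69 for Elovl3. With the skin keratinocyte mean as a further covariate, the slope of Elovl6 on the white adipocyte mean was 0.27 (limma, adjusted p = 0.157). Leaving out Ctrl 1 removes its skin and its muscle signal together and cannot tell them apart. The part of skin in the group differences was not tested.

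**Figure D2:**
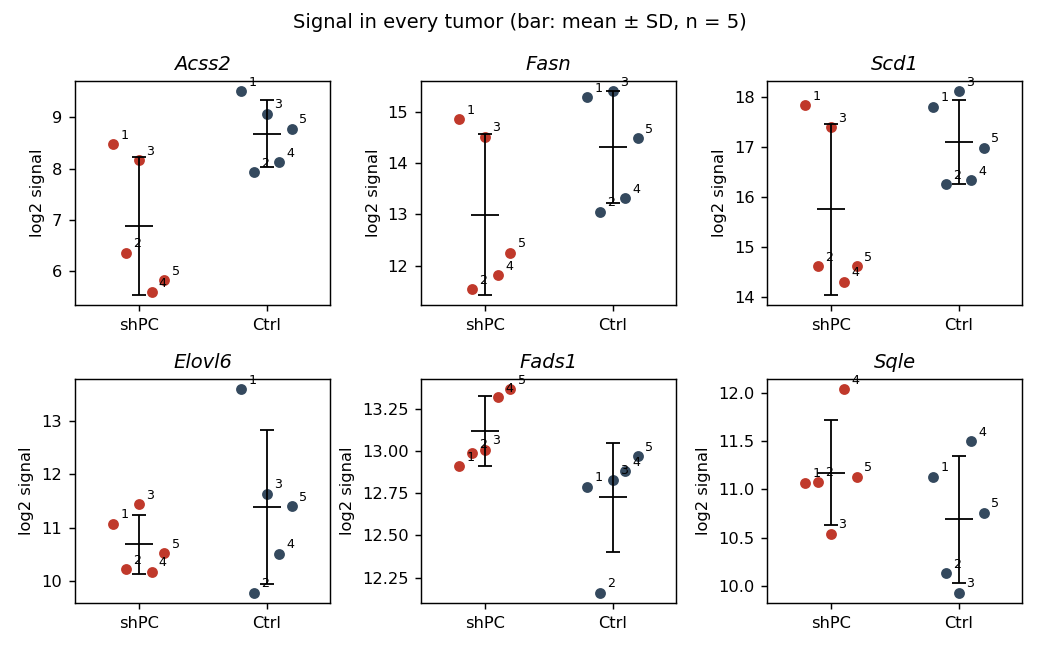
Log2 signal of 6 genes in every tumor, with shPC on the left and Ctrl on the right of each panel, small digits giving the tumor's number and bars the mean ± SD (n = 5). For Acss2, Fasn and Scd1 the shPC tumors 1 and 3 lie with the Ctrl tumors and 2, 4 and 5 lie below them, while Elovl6 is high in Ctrl 1 alone and Fads1 is low in Ctrl 2.

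The genes also differed in how much they varied between tumors of 1 group. The within-group SD was 1.35 for Fasn, 1.34 for Scd1, 1.37 for Elovl3, 1.09 for Elovl6 and 1.06 for Acss2, all at percentiles 97.2 to 98.5 of the 19505 genes. Without Ctrl 1 it was 0.55 for Elovl3, which was dim in 9 of 10 tumors, and 0.69 for Elovl6, at percentiles 86.5 and 93.4. In the sterol branch the largest was 0.62, for Hsd17b7, at percentile 89.7. Without Ctrl 1 that of Hsd17b7 was 0.44, at percentile 75.3, and the largest was 0.63, for Fdps, at percentile 91.4. Elovl5 at percentile 9.03 and Scap at percentile 11.8 were among the steadier genes of the array.

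Because the tumors grew in a fat pad, the genes were set against the white adipocyte genes within the groups. The slope says by how many log2 units a gene moved per log2 unit of the mean of 13 adipocyte genes, and it was tested in limma over all 10 tumors with the group as a term. Of the 9 fatty acid genes, 3 rose with the adipocyte genes at an adjusted p of 0.05, where 0.651% of all genes did, and 0 fell, where 0.0205% did. The slope was 0.58 for Fasn (standard error 0.04, adjusted p = 9.68e-05), 0.58 for Scd1 (standard error 0.04, adjusted p = 8.4e-05) and 0.43 for Acss2 (standard error 0.06, adjusted p = 0.00494). None of the 20 sterol genes passed, with slopes of -0.17 to 0.09, of which 16 were negative. Elovl6 had a slope of 0.29 (adjusted p = 0.448), while Fads1, Fads2, Elovl1 and Elovl5 had slopes of -0.01, -0.10, 0.02 and 0.0018.

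The tumors with the lowest adipocyte means were shPC 4 with 6.22, shPC 2 with 6.47 and shPC 5 with 6.94, which are the same 3 tumors that were lowest for Acss2, Fasn and Scd1. Those with the highest were Ctrl 3 with 12.90 and shPC 1 with 11.95. Each of the 13 adipocyte genes, Adipoq (the fat hormone adiponectin) and Plin1 (a lipid droplet coat protein) among them, was lower in shPC by sign, with differences of -3.63 to -1.06, and none passed an adjusted p of 0.05. Acss2 lost its call without shPC 1 (slope 0.42, adjusted p = 0.0716), and without the 2 tumors farthest from the median, shPC 2 and shPC 4 (slope 0.44, adjusted p = 0.0600). Fasn and Scd1 were called with any 1 tumor left out, at slopes of 0.56 to 0.60 and 0.55 to 0.61.

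**Figure D3:**
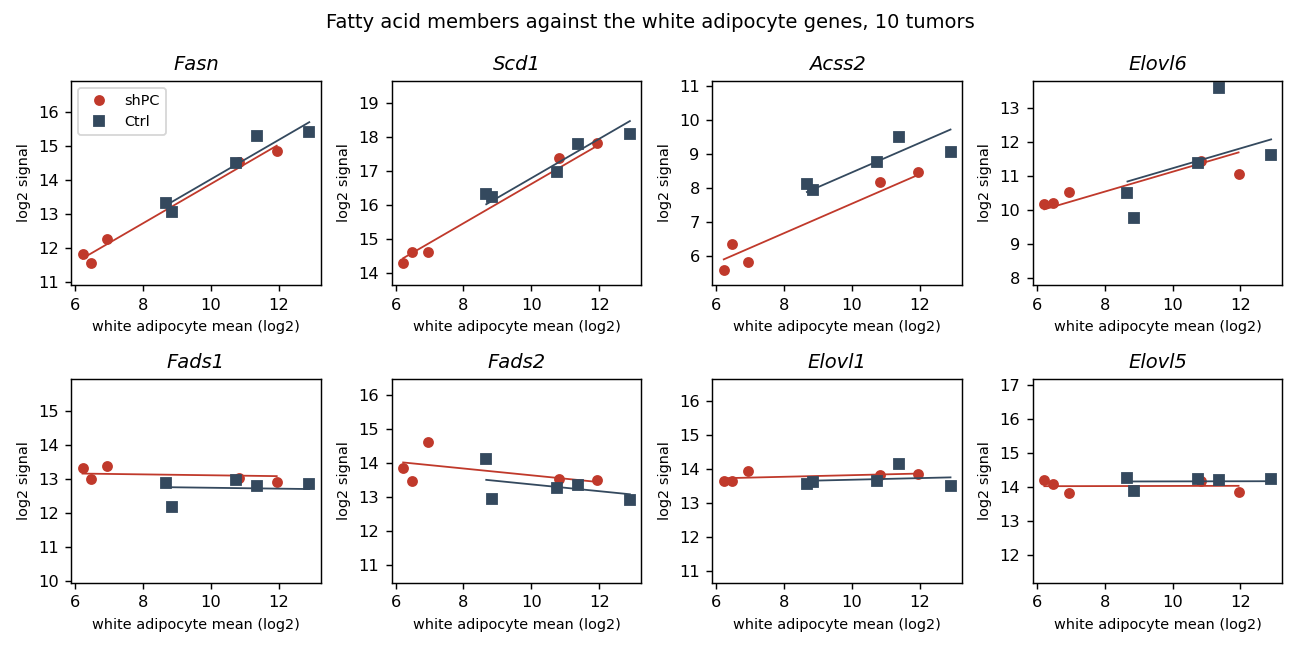
Log2 signal of 8 fatty acid genes against the mean log2 signal of 13 white adipocyte genes in the 5 shPC tumors (red circles) and the 5 Ctrl tumors (grey squares), each panel spanning 6 log2 units, with lines of the shared slope drawn for each group. Fasn, Scd1 and Acss2 climb with the adipocyte genes, with slopes of 0.58, 0.58 and 0.43, and for Acss2 the shPC line lies 0.92 below the Ctrl line, while the lower row is flat or nearly so.

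The sterol genes were next set against Sqle within the groups, in the same kind of fit. No gene followed Sqle at an adjusted p of 0.05 (0% of 19504 genes). At an unadjusted p of 0.05, 8 of 19 other sterol genes had a positive slope, where 3.22% of all genes had, and 0 of 9 fatty acid genes had. In the negative direction there were 0 members, where 2.84% of all genes lay. The steepest were Hsd17b7 with 0.73, Fdps with 0.71, Cyp51 with 0.67 and Msmo1 with 0.66, followed by Idi1 with 0.54, Fdft1 with 0.53, Dhcr7 with 0.40 and Srebf2 with 0.31. Their adjusted p-values were all near 0.813. The count was 2 without Ctrl 4, 5 without Ctrl 2, and 3 without shPC 4 and Ctrl 3, the tumors farthest from the median of Sqle.

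Of the sterol genes without a slope on Sqle at that threshold, Hmgcs1, Stard4, Nsdhl and Pmvk had slopes of 0.45, 0.48, 0.33 and 0.32, and Mvk, Mvd, Ebp and Scap had -0.0087, -0.08, -0.05 and 0.01. The 10 genes of the array with the smallest p for the slope on Sqle were Trf, Vmn2r28, Gm10408, Klhl23, Olfr985, Cldn8, Gm2030, 5930403L14Rik, Tdrp and Cdhr5, at adjusted p-values of 0.707 to 0.813. None of them is a sterol or fatty acid gene of the lists used here.

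**Figure D4:**
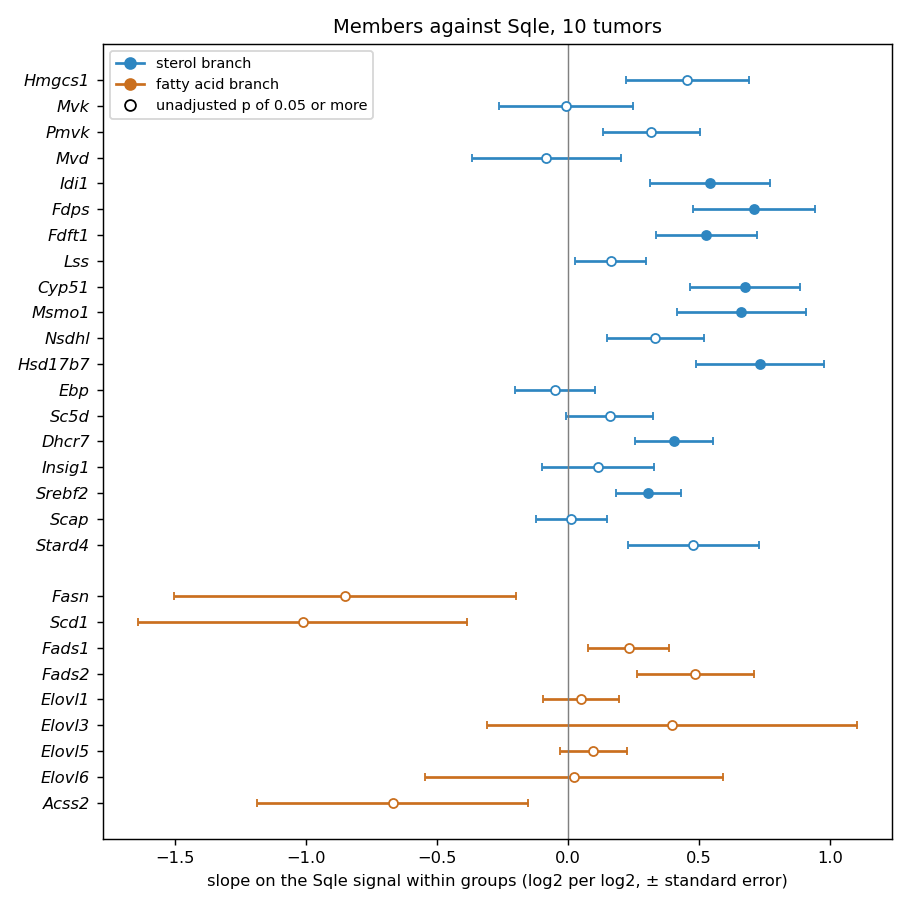
Slope of 28 genes on the log2 signal of Sqle within the groups (points, with bars of 1 standard error, 10 tumors), filled where the unadjusted p is under 0.05. The 8 filled points are all sterol genes, with slopes of 0.31 to 0.73.

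A slope on the mean of 7 proliferation genes, added after seeing the data, gave positive values at an unadjusted p of 0.05 for Sqle (1.32), Fdps (1.79), Dhcr7 (0.89) and Fads2 (1.24), which are 4 of 29 genes, where 5.46% of all genes had. There were 0 negative members, where 5.15% of all genes lay. None of the 29 passed an adjusted p of 0.05, where 0.00513% of all genes did.

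Other genes of the pathways were read from lists. Of 7 measured genes of sterol synthesis, uptake and trafficking, 0 passed an adjusted p of 0.05. At an unadjusted p of 0.05, 1 of the 7 was lower, where 6.25% of all genes were. It was Npc2, which carries cholesterol out of lysosomes (12.59 ± 0.27 in shPC and 13.01 ± 0.15 in Ctrl). Tmem97, a sterol-regulated membrane protein, differed by 0.45, Mbtps1, a protease that activates SREBPs, by 0.23 and Lipa, the lysosomal lipase, by 0.10.

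Genes of sterol efflux and targets of LXR, the receptor that senses excess sterol, were lower in shPC by sign in 7 of 8 cases, with a median difference of -0.47. Their mean was 11.62 to 12.16 in shPC and 12.32 to 12.75 in Ctrl. At an unadjusted p of 0.05, 4 of 8 were lower, where 6.25% of all genes were, and at an adjusted p of 0.05 0 were. With the white adipocyte mean as a covariate, 1 of 8 was lower at an unadjusted p of 0.05, where 864 of 19505 genes were. The median difference of the 8 was then -0.54. Abcg1, an exporter of cholesterol, had 10.18, 10.52, 10.54, 10.12 and 8.60 in shPC 1 to 5 and 10.66, 11.19, 11.70, 10.64 and 11.08 in Ctrl 1 to 5. Its groups did not overlap, as was so for 1.79% of all genes in this direction, and its difference was -1.06 (adjusted p = 0.245). Nr1h3, which encodes LXR alpha, differed by -1.20, Abca1, another exporter, by -0.50 and Cyp27a1, a sterol hydroxylase, by -0.67. The leukocyte mean, given above, was likewise lower in every shPC tumor than in every Ctrl tumor, and its part in these differences was not tested.

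Of 22 other measured genes of fatty acid and triglyceride synthesis, 17 were lower in shPC by sign, with a median difference of -0.37, and 0 passed an adjusted p of 0.05. At an unadjusted p of 0.05, 2 were lower, Thrsp and Dgat2, where 6.25% of all genes were, and 1 was higher, Mlx, where 7.8% of all genes were. Thrsp, a lipogenic protein of fat and liver, had 7.08 ± 4.27 in shPC and 11.26 ± 1.62 in Ctrl, and Dgat2, which makes triglyceride, had 8.44 ± 2.89 in shPC and 11.35 ± 1.52 in Ctrl. Mlx, partner of the glucose-sensing factor Mlxipl, differed by 0.33, and Agpat2, an acyltransferase of triglyceride synthesis, by -1.06. With the adipocyte genes, 7 of the 22 rose at an adjusted p of 0.05, where 0.651% of all genes did. Among them were Thrsp with a slope of 1.32 and Dgat2 with 0.98. The median difference of the 22 between shPC and Ctrl was -0.03 with the white adipocyte mean as a covariate.

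**Figure D5:**
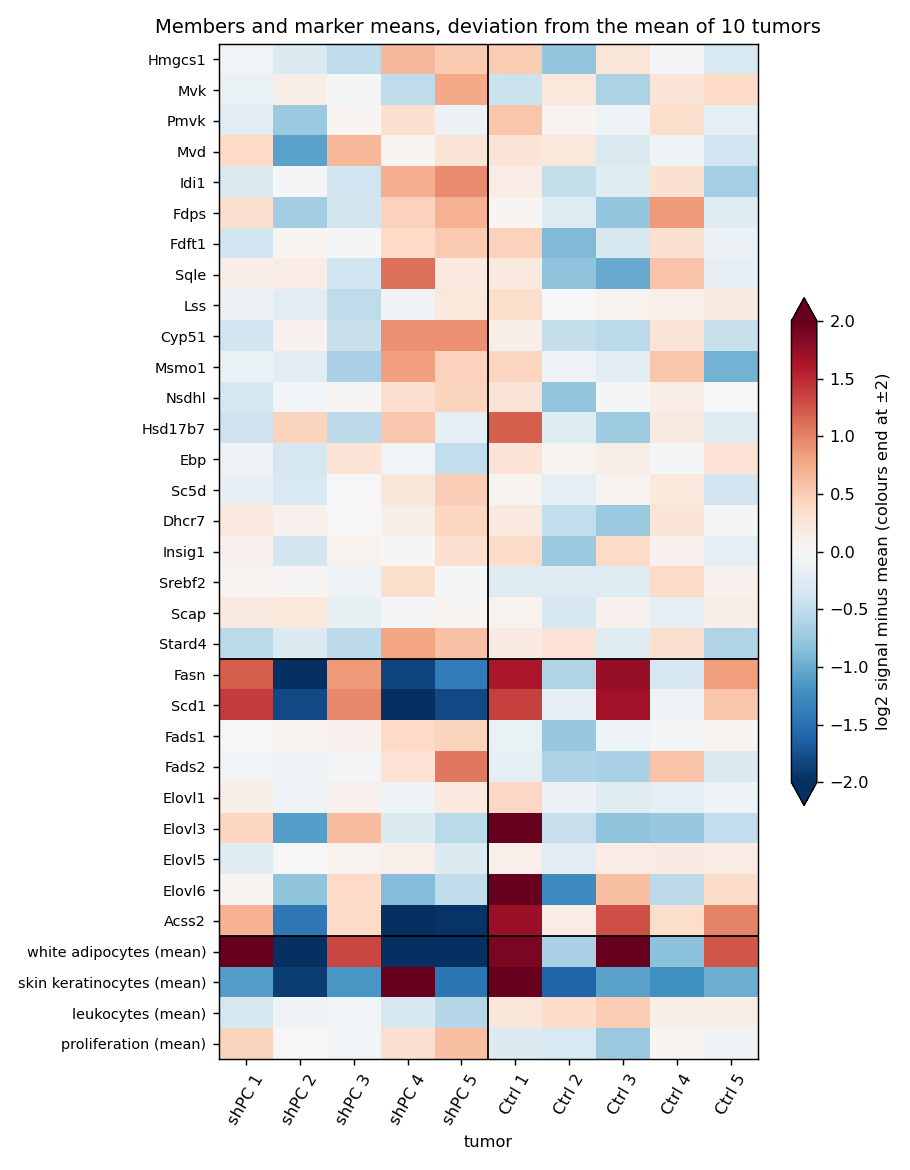
Deviation of 29 genes and 4 marker means from their mean over the 10 tumors, in log2 signal, with shPC tumors in the left columns and Ctrl tumors in the right ones, the sterol branch on top, the fatty acid branch below it and the markers at the bottom. Fasn, Scd1 and Acss2 are low in shPC 2, shPC 4 and shPC 5 like the white adipocyte mean. Elovl3 and Elovl6 are high in Ctrl 1 like the skin keratinocyte mean of 13.94. The skeletal muscle mean, not drawn, was also highest in Ctrl 1, at 9.92.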

How the data were processed

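Tumor RNA was measured on Clariom S arrays after labelling by the WT PLUS kit, and the authors used Transcriptome Analysis Console for quality control and differential expression. The deposited values are read as log2 signals, as the authors' software gives them, but the base is not certain, since the highest value, 19.19, exceeds the range of a usual scanner, and the sources used here do not give how arrays were normalized. The annotation gives 19572 of 22206 probe sets a single gene, 0 several and 2634 no entry. The probe set with the highest mean stood for a gene (55 genes have several, 0 of them members). The number of arrays limits the precision.

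Groups were compared with limma 3.58.1 in R 4.3.3 (lmFit, eBayes, no filter, Benjamini-Hochberg over 19505 genes, threshold 0.05), and single genes by two-sided exact permutation over 252 splits, where the smallest p is 0.00794. Slopes used the group as a term. The steps were tested on simulated data. Members and lists were chosen with earlier results of these data known. Values in every tumor are given for members with an unadjusted p under 0.05, a difference over 1 or no overlap, and for Sqle, Srebf2 and Insig1 (Srebf1, also in the rule, was not analysed here). Of other genes, up to 4 per pathway list and 10 for the slope on Sqle, by smallest p, are named. Alternatives were quantile normalization, median centring, a filter on dim probe sets, array weights, variances with trend and robust moderation (statmod 1.5.0), mean probe sets, the methods' t-test, the replicate block, marker means as covariates and leaving out tumors. The slope on proliferation genes, the adipocyte covariate without Ctrl 1, the skin covariate of the adipocyte slopes and the SD without Ctrl 1 were added after seeing the data.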

Additional observations from a re-analysis of the deposited data

Results flagged for a closer look

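Of 62 group values tested, 5 had a tumor far from the other 4 of its group, as chance gives in about 1 of 20 groups. All 5 were Ctrl tumors. Ctrl 1 was high for Elovl1 (14.15 against 13.48 to 13.65) and Elovl3 (6.35 against 2.16 to 2.50). Ctrl 2 was low for Nsdhl (10.99 against 11.76 to 12.04), Fads1 (12.16 against 12.79 to 12.97) and Elovl5 (13.87 against 14.20 to 14.26).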

How the results depend on the processing

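No gene of either branch passed an adjusted p of 0.05 between shPC and Ctrl under any alternative run. Over all genes, 1 passed with arrays centred on their median, 10 with trend and robust variances, and 0 to 4 with 1 tumor left out. The count of members at an unadjusted p of 0.05, which was 2, became 1 after quantile normalization, with the methods' t-test and with the white adipocyte covariate, 5 with the replicate block, 0 without Ctrl 1 and shPC 5, and 1 to 4 with 1 tumor left out. The members that followed the white adipocyte genes were 3, but 0 with the replicate block, where Elovl6 had a slope of -0.49, 3 with the skin keratinocyte covariate, and 2 to 3 with 1 tumor left out. The positive slopes on Sqle at an unadjusted p of 0.05 were 8, but 4 with the replicate block, 3 without the 2 farthest tumors and 2 to 9 with 1 tumor left out. The same-numbered tumors deviated together at a correlation of only 0.04 to 0.28, and 4 of 10 tumors correlated best with their own number, so the numbers are not taken as pairs.

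With the leukocyte covariate, whose values do not overlap between the groups, the sterol branch difference was -0.43, of the members, 2 had an unadjusted p under 0.05 with a lower signal in shPC and 0 with a higher one, and these genes turned negative: Cyp51 -0.54, Dhcr7 -0.40, Elovl1 -0.11, Fads2 -0.63, Fdft1 -0.41, Fdps -1.27, Hmgcs1 -0.47, Idi1 -0.44, Insig1 -0.19, Msmo1 -0.57, Mvd -0.17, Mvk -0.65, Nsdhl -0.28, Sc5d -0.25, Sqle -0.56, Srebf2 -0.20 and Stard4 -0.62. With the white adipocyte covariate the differences were 0.13 for Elovl3, -0.0092 for Fdps, -0.14 for Msmo1, -0.087 for Mvk and -0.31 for Stard4. With that covariate and without Ctrl 1 they were 0.73 for Elovl3, 0.29 for Elovl6, -0.022 for Msmo1, -0.15 for Mvk, -0.0056 for Srebf2 and -0.25 for Stard4. Without Ctrl 1 and shPC 5 they were 0.55 for Elovl3, 0.27 for Hsd17b7, -0.19 for Mvk and -0.075 for Stard4. Array weights gave -0.011 for Fdps, 0.060 for Hsd17b7 and -0.044 for Mvk, median centring gave 0.039 for Hsd17b7, and quantile normalization gave -0.011 for Stard4. With 1 tumor left out the difference ranged over -0.59 to 0.46 for Elovl3, -0.013 to 0.40 for Fdps, -0.039 to 0.28 for Hmgcs1, -0.25 to 0.23 for Hsd17b7, -0.13 to 0.15 for Insig1, -0.11 to 0.30 for Msmo1, -0.032 to 0.40 for Mvd, -0.097 to 0.22 for Mvk, -0.011 to 0.27 for Nsdhl, -0.0055 to 0.19 for Sc5d and -0.18 to 0.16 for Stard4. The cause of these turns was not tested. Elovl3 had no value under the filter on dim probe sets.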

Other observations

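Genes of other lists also followed the white adipocyte genes. Of 6 luminal epithelium genes, 2 had positive slopes on the adipocyte mean at an adjusted p of 0.05, where 0.651% of all genes had. They were Krt18 and Cldn4 (limma, 10 tumors, slopes 0.73 and 0.43). The mean of the 6 was 4.71 to 7.91 in shPC tumors and 6.77 to 9.60 in Ctrl tumors. Of 6 brown adipocyte genes, 2 had positive slopes, Cidea with 0.71 and Cox8b with 0.56. Ucp1, the uncoupling protein of brown fat, had 7.13 in shPC 3 and 7.80 in Ctrl 3, and 2.60 to 5.43 in the other tumors.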
